A study of Mus musculus with 4 samples.

Results

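The proteasome is the protease that destroys proteins tagged with ubiquitin. Its 20S core is a barrel of alpha and beta rings whose catalytic beta subunits cut the substrate, and its 19S cap recognises ubiquitin, unfolds the substrate with ATPases and feeds it in. Interferon-inducible beta subunits can replace the constitutive catalytic ones to form the immunoproteasome, which blood-forming cells carry at rest and which makes peptides for display on MHC class I. Blood-forming stem cells are known for slow protein synthesis and for depending on orderly protein breakdown.

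The transcripts of this family were read in sorted mouse LSK cells, a fraction that lacks lineage markers, carries Kit and Sca-1, and holds blood stem cells with their earliest progeny. Mice had received GFP+ long-term stem cells with miR-99 knocked down (miR-99 KD, 2 libraries) or with the control labelled Scr (2 libraries), and GFP+ LSK cells of both groups were sorted 3 months later. The labels do not give strain, age or how many mice stand behind a library. All libraries are bulk RNA, so fewer cells of a type and less RNA per cell cannot be told apart. Members were the protein-coding genes whose symbol begins with Psm, a letter from a to g and a number, with at least 10 counts summed over the libraries. There were 49 of them among 45232 gene rows. The pattern matched 54 rows, of which 4 were pseudogenes and 1, Psmb11 of the thymus proteasome, had no counts. One member, Psmc3ip, carries a matching name but encodes a meiotic recombination factor, which leaves 48 proteasome genes. The 49 members, all of which passed the filter on low counts, were tested among 15320 genes.

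Gene counts per library ran from 27295197 to 32350590. The rows of the microRNA genes Mir99a, Mir99b and Mir100 held 0 counts in every library, so the targeted microRNA could not be checked from them. Mir99ahg, the host transcript of Mir99a, had 132 and 195 counts in miR-99 KD against 397 and 411 counts in Scr. Of the sort markers, Kit stood at 670 and 774 CPM (counts scaled to a common library size) in miR-99 KD, against 1149 and 1280 CPM in Scr, and Ly6a, which encodes Sca-1, at 12.4 and 22.3 CPM in miR-99 KD against 46.5 and 22.8 CPM in Scr. Neutrophil markers stood apart in miR-99 KD 1, where 10 genes summed to 29134 CPM, against 5244 CPM in miR-99 KD 2, 8251 CPM in Scr 1 and 6169 CPM in Scr 2. The 10 stem and progenitor markers summed to 1444 and 1510 CPM in miR-99 KD and to 2815 and 3309 CPM in Scr. In 9 of them each miR-99 KD library was under each Scr library, against 26% of all genes tested. The 12 erythroid markers summed to 15427 and 15183 CPM in miR-99 KD and to 11233 and 8836 CPM in Scr. In 6 of them each miR-99 KD library was above each Scr library, against 24.5% of all genes tested. The 10 B cell precursor markers summed to 319 and 93.4 CPM in miR-99 KD against 92.4 and 42.4 CPM in Scr, and the 3 tested T and NK cell markers to 160 and 125 CPM against 220 and 227 CPM. The 11 macrophage and dendritic markers overlapped. The stem list moved with the groups. The erythroid list did so by its sums, but not by its library medians of log2 CPM less each gene's mean over all libraries. These medians were 0.81 and -0.26 in miR-99 KD against 0.23 and -0.65 in Scr, so miR-99 KD 2 lay below Scr 1. In the other 6 erythroid markers the groups overlapped. The part of these marker lists in the results on proteasome genes was not tested.

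The microRNAs of the miR-99 family share 1 seed. Their mature sequences (RefSeq, GRCm38.p6) are shown because a direct target would carry the complement of that seed. Capitals mark the seed, bases 2 to 8.

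mmu-miR-99a-5p: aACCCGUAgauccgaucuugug
mmu-miR-99b-5p: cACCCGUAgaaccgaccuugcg
mmu-miR-100-5p: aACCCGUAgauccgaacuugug

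The complement of that seed, TACGGGT, was found in the annotated 3′ untranslated region of 0 of 47 members that had one of at least 50 bases, against 175 of 12751 tested genes, or 1.37%. Its shorter form, ACGGGT, was found in 1 member, Psmd5, against 6.86% of tested genes. The regions of the members ran from 55 bases in Psmb10 to 2842 bases in Psmd5. Length was not matched to that of other genes, so these shares cannot show whether sites are rarer in members. Psmd5 encodes a chaperone that assembles the base of the 19S cap. The match lies 2052 bases into its untranslated region (GENCODE M21 transcript, gene on chromosome 2), with the shared letters in capitals.

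Psmd5 site: aagtgtcaccACGGGTgctgagct

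Most proteasome genes stood higher and the immunoproteasome genes lower in miR-99 KD cells, by amounts that did not pass the test across all genes. Each miR-99 KD library exceeded each Scr library in 32 of 49 members, against 24.5% of all 15320 genes. Each was below in 6 members, against 26% of all genes, and these were Psmb6, Psmb8, Psmb9, Psmb10, Psme2 and Psme2b. In the other 11 members the groups overlapped. A log2 difference (miR-99 KD over Scr) above 0 was found in 39 members, against 51.4% of all genes. Its median over the members was 0.27, beside 0.02 over all genes tested, and single members ran from -0.73 for Psmb8 to 0.60 for Psmd9. Scaling by library totals alone set the median of all genes at -0.07 and that of the members at 0.18, so the gap between them was 0.25 under both scalings. Without miR-99 KD 1, the library with the high neutrophil markers, the median over the members was 0.30, and it was 0.21 without miR-99 KD 2, 0.30 without Scr 1 and 0.22 without Scr 2. With miR-99 KD 1 left out, 35 members lay above and 11 below both Scr libraries, against 39.7% and 41.3% of all genes in the same comparison.

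edgeR's quasi-likelihood test, with p adjusted by Benjamini-Hochberg, called 0 of 49 members at an adjusted p of 0.05 and 0 of all genes, and limma-voom also called 0 members. The lowest edgeR adjusted p among the members was 0.227. At an unadjusted p under 0.05, edgeR counted 10 members higher, against 5.97% of all genes, and 2 lower, against 9.63%. The 10 were Psma5, Psmb3, Psmc4, Psmd5, Psmd6, Psmd9, Psmd11, Psme3, Psmf1 and Psmg3, and the 2 were Psmb8 and Psmb9. DESeq2 called 3 members higher, against 1.68% of all genes, and 1 lower, against 4.16%. These were Psmd6, Psmd9 and Psmd11, higher, and Psmb8, lower. With each library left out in turn, DESeq2's log2 difference ran from -0.97 to -0.52 for Psmb8 and from 0.47 to 0.71 for Psmd9. These fits leave 1 library in a group, so only the size of the difference is given here. With the replicate number as a block, DESeq2 called 0 members, against 0.574% of all genes higher and 1.98% lower. Its adjusted p was then 0.0662 for Psmb8 and 0.201 for Psmd9.

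**Figure D1:**
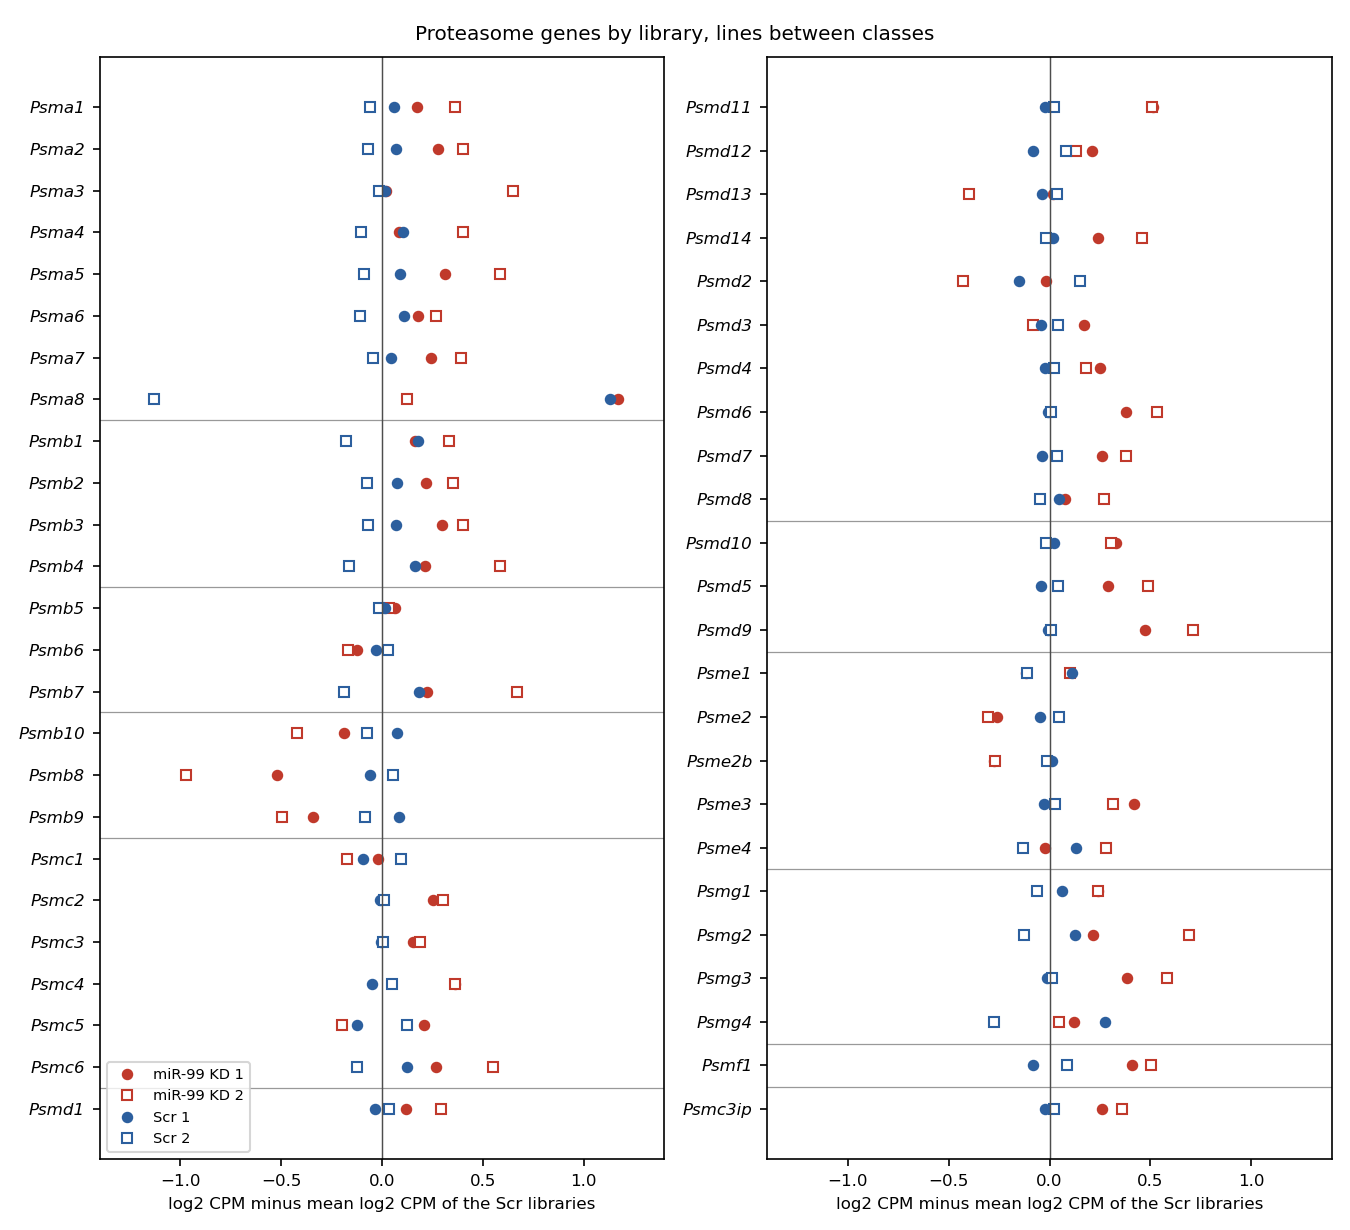
Each row is a member and each mark a library, as log2 CPM less the mean of the Scr libraries. Red marks are miR-99 KD and blue marks Scr, filled for replicate 1 and open for replicate 2. Red lies right of blue in 32 of 49 members and left of it in 6, among them Psmb8, Psmb9 and Psmb10.

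The alpha subunits form the outer rings of the core and its gate. All 8 alpha genes had a log2 difference above 0, against 51.4% of all genes tested, with a median of 0.33. In 6 of them each miR-99 KD library was above each Scr library, against 24.5% of all genes. Psma5 had 63.8 and 77.1 CPM in miR-99 KD, against 54.7 and 48.3 CPM in Scr, 0.45 ± 0.17 on the log2 scale (SE, n = 2 per group) with an edgeR adjusted p of 0.313. Psma2 had 234 and 255 CPM in miR-99 KD against 202 and 184 CPM in Scr. Psma7 had 418 and 463 CPM in miR-99 KD against 364 and 343 CPM in Scr, and Psma1 had 388 and 442 CPM against 359 and 330 CPM. In these 4 genes the groups did not overlap, and miR-99 KD 2 was the highest. Psma3 shared the pattern barely, with 44.5 CPM in the lower miR-99 KD library and 44.4 CPM in the higher Scr library. Psma6 had 287 and 306 CPM in miR-99 KD against 274 and 235 CPM in Scr, the smallest difference of the ring at 0.22. Psma4 overlapped, at 151 and 188 CPM in miR-99 KD against 153 and 132 CPM in Scr.

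Psma8, a form of alpha subunit known from the testis, varied most between libraries in the ring. It had 22.2 and 10.7 CPM in miR-99 KD against 21.6 and 4.5 CPM in Scr, so that the libraries numbered 1 were high in both groups and those numbered 2 low. Its SE of 0.77 was the largest of the members.

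Structural beta subunits, which complete the inner rings without cutting, gave a median of 0.32 over 4 genes. Psmb3 had 124 and 133 CPM in miR-99 KD against 106 and 96.3 CPM in Scr, a log2 difference of 0.35 ± 0.13 (SE). Psmb2 had 309 and 340 CPM in miR-99 KD, against 280 and 253 CPM in Scr, and Psmb4 had 188 and 243 CPM against 182 and 145 CPM. In these 3 genes each miR-99 KD library was above each Scr library, against 24.5% of all genes tested. Psmb1 overlapped, with 249 and 280 CPM in miR-99 KD against 253 and 197 CPM in Scr. The edgeR adjusted p of the 4 genes was 0.314 to 0.537.

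The 3 constitutive catalytic subunits did not share a direction. Psmb5, which carries the chymotrypsin-like activity, had 82.2 and 80.4 CPM in miR-99 KD against 79.4 and 77.6 CPM in Scr, 0.05 ± 0.13 on the log2 scale (SE, n = 2 per group), which turned to -0.04 with scaling by library totals alone. Psmb6, of the caspase-like activity, was lower in both miR-99 KD libraries, at 209 and 202 CPM against 223 and 231 CPM in Scr, with a log2 difference of -0.14 ± 0.12. Psmb7, of the trypsin-like activity, had 121 and 165 CPM in miR-99 KD against 118 and 91.3 CPM in Scr, with a log2 difference of 0.45 ± 0.22 that was 0.21 without miR-99 KD 2 and 0.26 without Scr 2. Their median was 0.05, and edgeR's adjusted p ran from 0.379 to 0.882.

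The immunoproteasome subunits replace those 3 during assembly. For all 3 the miR-99 KD libraries lay below the Scr libraries without overlap, against 26% of all genes tested. Psmb8, which replaces Psmb5, had 172 and 126 CPM in miR-99 KD, against 237 and 257 CPM in Scr, with means of 149 ± 32.7 CPM in miR-99 KD and 247 ± 13.8 CPM in Scr (SD, n = 2 each). Its log2 difference was -0.73 ± 0.19 (SE), with an edgeR adjusted p of 0.232 and a DESeq2 adjusted p of 0.0185. Psmb9, which replaces Psmb6, had 99.8 and 89.5 CPM in miR-99 KD against 134 and 119 CPM in Scr, with a log2 difference of -0.42 ± 0.14 and an edgeR adjusted p of 0.285. Psmb10, which replaces Psmb7, had 74.8 and 63.7 CPM in miR-99 KD against 90.0 and 81.0 CPM in Scr, with a log2 difference of -0.30 ± 0.16, or -0.19 without miR-99 KD 2, and an edgeR adjusted p of 0.402. In each of these genes miR-99 KD 2 was the lowest library. By edgeR the log2 difference of Psmb8 was -0.97 when miR-99 KD 1 was left out, and -0.52 when miR-99 KD 2 was. Each of these fits holds 1 miR-99 KD library, so only the size of the difference is given.

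Each immunoproteasome subunit was also set against the one it replaces within the same library, as a ratio of counts per kilobase of transcript, which does not depend on the scaling between libraries. The Psmb8 to Psmb5 ratio was 1.16 and 0.866 in miR-99 KD, against 1.65 and 1.83 in Scr, a log2 difference of -0.80 ± 0.22 (SE). For Psmb9 to Psmb6 it was 0.282 and 0.261 in miR-99 KD against 0.355 and 0.304 in Scr. The Psmb10 to Psmb7 ratio was 0.546 and 0.342 in miR-99 KD against 0.674 and 0.785 in Scr. The groups did not overlap in any of the 3 ratios, with miR-99 KD the lower. The exact two-sided permutation p was 0.333 for each, and 0.333 after adjustment over the 3, which is the smallest p that 2 against 2 libraries can give. The size of the last 2 differences rests on single libraries: for Psmb10 to Psmb7 it was -0.75 in all, -0.41 once miR-99 KD 2 was dropped, or -1.09 once miR-99 KD 1 was, and for Psmb9 to Psmb6 it was -0.27 in all and -0.16 without Scr 1.

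**Figure D2:**
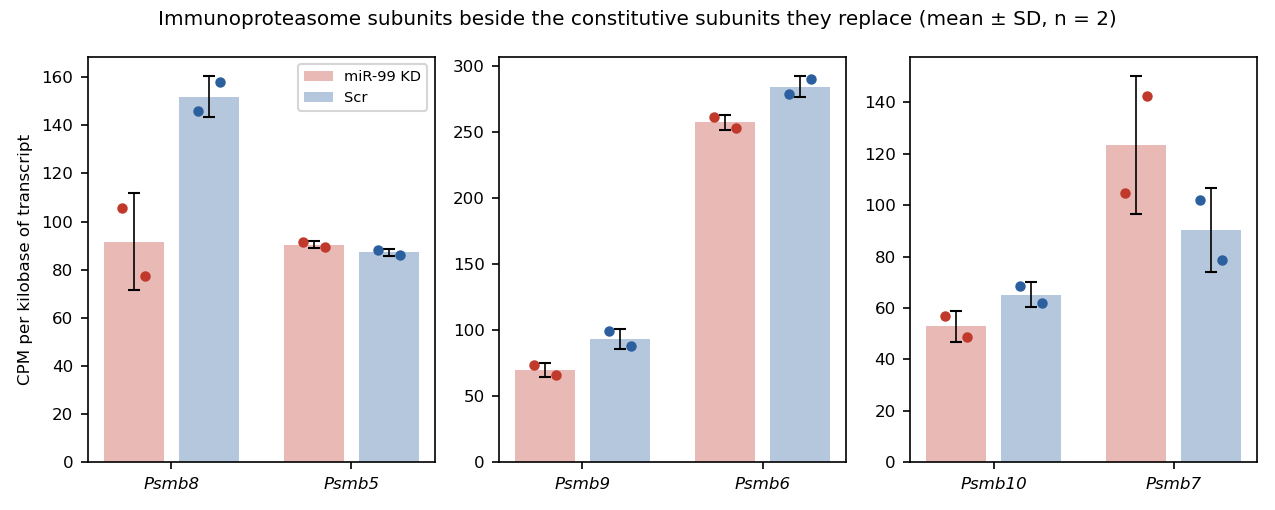
Levels of the 3 immunoproteasome subunits (left in each panel) and of the constitutive subunit each replaces (right), in CPM per kilobase of the protein-coding transcript. Bars are means with SD (n = 2), dots are libraries, red is miR-99 KD and blue Scr, and Psmb8 has 106 and 77.4 in miR-99 KD against 146 and 158 in Scr.

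Per length, the core genes spanned a wide range in both groups. In CPM per kilobase of principal transcript, Psma7 was the highest of 17 core and immunoproteasome genes in both groups, at 482 ± 35.1 in miR-99 KD against 386 ± 16.3 in Scr (SD, n = 2 each), and Psma3 the lowest, at 19.9 ± 6.06 in miR-99 KD against 15.4 ± 0.218 in Scr. Psmb8 ranked 11 in miR-99 KD, at 91.6 ± 20.1, and 6 in Scr, at 152 ± 8.5. Its neighbours in miR-99 KD, Psmb5 at 90.4 ± 1.46 and Psmb7 at 123 ± 26.7, and the next lower in Scr, Psmb4 at 138 ± 22.2, did not differ from it beyond the spread of the libraries, while the next higher in Scr, Psma6 at 244 ± 26.2, did. Some core transcripts share sequence with other genes, and the part of this in the order was not tested. Of the 50-base words of its transcript, Psmb5 shared 57.1% with other annotated genes, Psmb3 55.8%, Psma5 54.5%, Psma4 25.6% and Psma3 22.0%, and reads with several alignments stand in a row of their own outside the gene counts. Psmb8, Psmb9, Psmb10, Psmb7, Psma7 and Psma1 shared 0.

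The 19S ATPases, the ring that unfolds substrates, had a median log2 difference of 0.23 over 6 genes. Psmc4 was nearly equal within groups, at 342 and 342 CPM in miR-99 KD against 258 and 276 CPM in Scr, 0.36 ± 0.13 on the log2 scale (SE, n = 2 per group) with an edgeR adjusted p of 0.293. Psmc6 had 169 and 206 CPM in miR-99 KD against 153 and 129 CPM in Scr, Psmc2 268 and 278 CPM against 223 and 227 CPM, and Psmc3 323 and 332 CPM against 290 and 292 CPM. In these 4 genes each miR-99 KD library was above each Scr library, against 24.5% of all genes tested. Psmc1 and Psmc5 overlapped, with log2 differences of -0.10 and 0.01.

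Among the 11 non-ATPase subunits of the 19S cap, which hold the ubiquitin receptors, the deubiquitinase and the scaffold, 8 were higher in both miR-99 KD libraries and 3 overlapped. The share of all genes tested that were higher in both miR-99 KD libraries was 24.5%. The median of the 11 was 0.21. Psmd11, a lid scaffold subunit that in human and worm cells raises proteasome assembly when abundant, had 147 and 147 CPM in miR-99 KD, against 102 and 105 CPM in Scr. Its log2 difference was 0.51 ± 0.12 (SE), with an edgeR adjusted p of 0.227 and a DESeq2 adjusted p of 0.0185. Psmd6, another lid subunit, had 279 and 311 CPM in miR-99 KD against 213 and 216 CPM in Scr, with an edgeR adjusted p of 0.249 and a DESeq2 adjusted p of 0.0358. Psmd14, the deubiquitinase that removes ubiquitin chains at the pore, had 280 and 326 CPM in miR-99 KD against 240 and 234 CPM in Scr. Psmd7, its partner, had 449 and 487 CPM in miR-99 KD against 366 and 384 CPM in Scr. The groups did not overlap in these 4 genes. Psmd1, Psmd8 and Psmd12 also did not overlap and differed by 0.17 to 0.21 on the log2 scale. Psmd4, a ubiquitin receptor, had 307 and 293 CPM in miR-99 KD against 255 and 263 CPM in Scr.

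The base subunit Psmd2, a large scaffold, was low in 1 miR-99 KD library. It had 382 and 287 CPM in miR-99 KD 1 and 2, against 348 and 428 CPM in Scr, and the groups overlapped. Psmd13 had the same shape, at 156 and 117 CPM in miR-99 KD against 150 and 158 CPM in Scr, and Psmd3 overlapped too. Psmd2, Psmd13 and Psmc1 were the only 19S subunits with a log2 difference below 0.

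Assembly factors gave some of the largest differences among the members. Psmd9, a chaperone that helps build the 19S base, had 122 and 144 CPM in miR-99 KD, against 87.4 and 88.4 CPM in Scr, 0.60 ± 0.14 on the log2 scale (SE, n = 2 per group). This was the highest of the 49, with an edgeR adjusted p of 0.227 and a DESeq2 adjusted p of 0.0180. By edgeR the log2 difference of Psmd9 was 0.71 when miR-99 KD 1 was left out, and 0.47 when miR-99 KD 2 was. Psmd5 had 351 and 403 CPM in miR-99 KD against 279 and 296 CPM in Scr, and Psmd10, the oncoprotein gankyrin, 67.5 and 66.5 CPM against 54.5 and 53.0 CPM. In all 3 of these base chaperones each miR-99 KD library was above each Scr library, against 24.5% of all genes tested. Their median was 0.39.

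Of the 4 chaperones of the 20S core, which pair up to guide the alpha ring, 3 were higher in both miR-99 KD libraries. This held for 24.5% of all genes tested. The median of the 4 was 0.35. Psmg3 had 57.5 and 65.9 CPM in miR-99 KD, against 43.7 and 44.5 CPM in Scr, a log2 difference of 0.49 ± 0.16 (SE). Psmg2 had 116 and 161 CPM in miR-99 KD against 109 and 91.3 CPM in Scr, and Psmg1 104 and 104 CPM against 91.5 and 84.0 CPM. Psmg4, the lowest in counts, overlapped at 20.6 and 19.6 CPM in miR-99 KD against 22.9 and 15.7 CPM in Scr. Psmf1, which encodes the proteasome binding protein PI31, had 144 and 154 CPM in miR-99 KD against 102 and 115 CPM in Scr, with an edgeR adjusted p of 0.251.

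The activators that cap the core in place of the 19S particle differed in direction. Psme3, the nuclear activator PA28 gamma, was the member with the most CPM, at 814 and 760 CPM in miR-99 KD against 598 and 622 CPM in Scr. It differed by 0.37 ± 0.13 on the log2 scale (SE, n = 2 per group), at an edgeR adjusted p of 0.293. Psme1 and Psme2 encode the interferon-inducible pair PA28 alpha and beta. Psme2 was lower in both miR-99 KD libraries, at 38.2 and 37.0 CPM against 44.3 and 47.2 CPM in Scr, and Psme1 overlapped at 173 and 201 CPM in miR-99 KD against 203 and 174 CPM in Scr. Psme2b, a gene whose transcript shares 68.7% of its 50-base words with Psme2, had 52.5 and 52.5 CPM in miR-99 KD against 64.0 and 62.9 CPM in Scr, and reads may be split between these copies. Psme4, the activator PA200, overlapped at 48.5 and 59.7 CPM in miR-99 KD against 53.9 and 44.9 CPM in Scr.

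**Figure D3:**
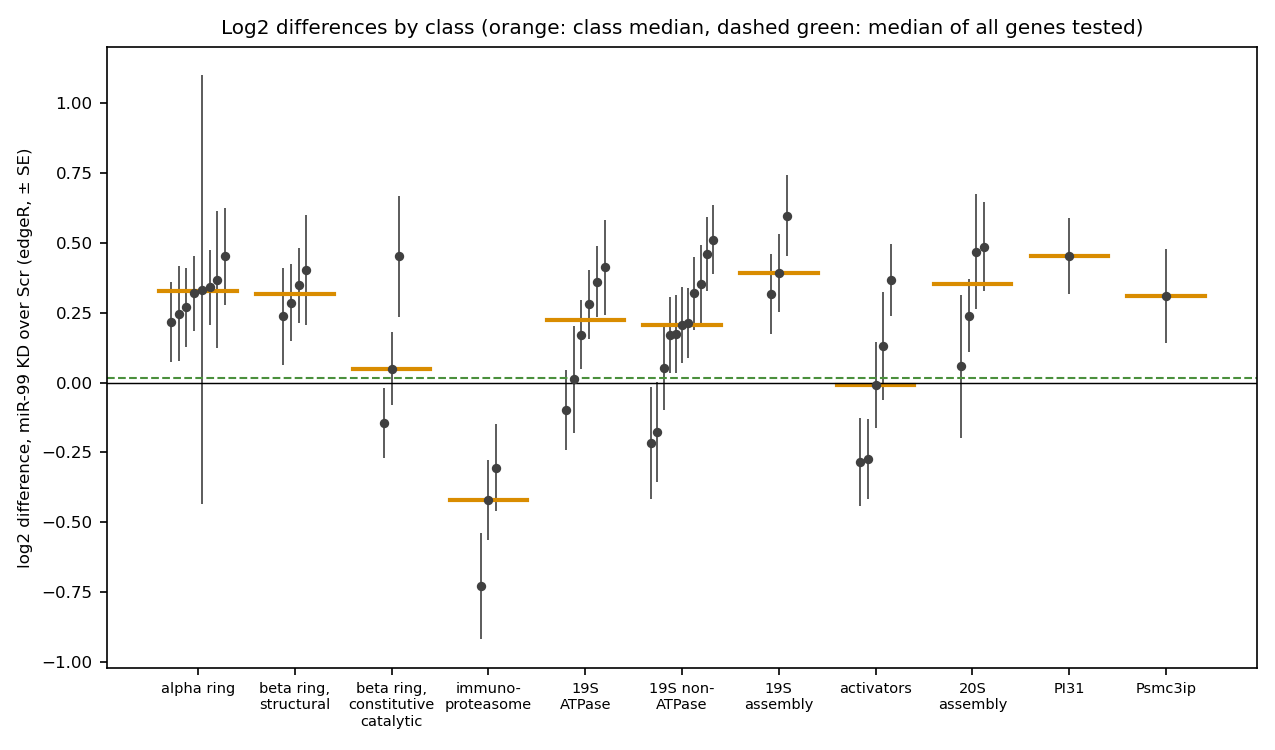
Points are the log2 differences of the members (miR-99 KD over Scr) with their SE from edgeR, by class, in order of size within a class. Orange lines are class medians, from -0.42 for the immunoproteasome to 0.45 for PI31, and the dashed green line is the median of all genes tested, 0.02.

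The list medians of single libraries show where the differences lie. Each list was summarised by the median, over its genes, of log2 CPM less the gene's 4-library mean. The core without Psma8 was at 0.04 and 0.23 in miR-99 KD, against -0.05 and -0.22 in Scr. The 17 subunits of the 19S cap were at 0.11 and 0.16 in miR-99 KD, against -0.13 and -0.09 in Scr. For the immunoproteasome the same measure gave -0.13 and -0.29 in miR-99 KD against 0.29 and 0.12 in Scr. In the core the highest and lowest libraries were miR-99 KD 2 and Scr 2, while in the cap the libraries of a group lay close together. Nuclear genes of the respiratory chain and cytosolic ribosomal protein genes, which are also made in fixed proportions, stood beside them. In the respiratory chain 49 of 77 genes were higher in both miR-99 KD libraries, or 63.6%, close to the 65.3% of the proteasome members. In the ribosome 23 of 80 were, or 28.8%, and among all genes tested 24.5%. A log2 difference above 0 was found in 74 of 77 respiratory chain genes, with a median of 0.27. It was found in 78 of 80 ribosomal protein genes, with a median of 0.34. Among the members it was found in 39 of 49, with a median of 0.27, and among all genes tested in 51.4%. The ribosome list was at -0.04 and 0.40 in miR-99 KD against 0.04 and -0.37 in Scr, so its libraries numbered 1 did not part by group. The difference between these lists was not tested.

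**Figure D4:**
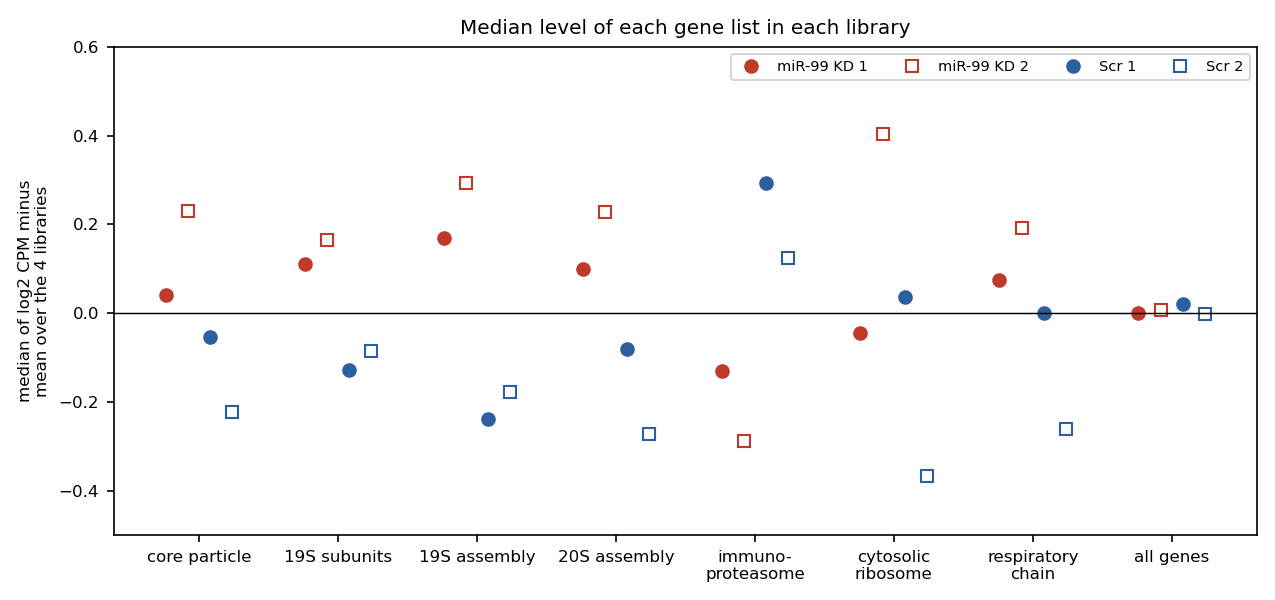
Median, over the genes of a list, of log2 CPM less the gene's 4-library mean, for lists of the proteasome, the ribosome, the respiratory chain and all genes tested, with red for miR-99 KD and blue for Scr. The 19S list has miR-99 KD at 0.11 and 0.16 and Scr at -0.13 and -0.09, and the immunoproteasome list has the opposite order.

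Genes that work with the proteasome but lie outside the symbol family were read from the same fit. In 9 tested partners, edgeR called 0, and the median was 0.23. In both miR-99 KD libraries 5 were higher and 0 lower, against 24.5% and 26% of all genes tested. Txnl1, a thioredoxin-like protein of the 19S cap, had 419 and 580 CPM in miR-99 KD against 349 and 323 CPM in Scr. The log2 difference of Txnl1 was 0.57 in all, 0.78 once miR-99 KD 1 was dropped and 0.32 once miR-99 KD 2 was. Pomp, the maturation factor of the core, had 179 and 187 CPM in miR-99 KD against 164 and 148 CPM in Scr, and Sem1, a small lid subunit, 133 and 118 CPM against 115 and 90.1 CPM. Adrm1, a ubiquitin receptor of the cap, and Uchl5, the deubiquitinase bound to it, overlapped. Fbxo7, a ubiquitin ligase subunit that binds PI31, had 138 and 140 CPM in miR-99 KD against 116 and 119 CPM in Scr.

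Regulators of proteasome gene transcription pointed both ways. Nfe2l2, the oxidative stress factor that can induce core genes, had 306 and 325 CPM in miR-99 KD, against 195 and 208 CPM in Scr, 0.65 ± 0.13 on the log2 scale (SE, n = 2 per group). It was called by DESeq2 at an adjusted p of 7.5e-04 and not by edgeR, at 0.213. Nfe2l1, the factor that restores proteasome genes when proteasomes are inhibited, had 81.4 and 55.7 CPM in miR-99 KD against 94.8 and 113 CPM in Scr. Ddi2, the protease that activates the Nfe2l1 product, had 89.4 and 104 CPM in miR-99 KD against 60.7 and 71.0 CPM in Scr. Stat3 had 166 and 111 CPM in miR-99 KD against 196 and 226 CPM in Scr. The log2 difference of Nfe2l1 was -0.60, but -0.35 without miR-99 KD 2, and that of Stat3 -0.61, but -0.34 without it. The groups did not overlap in these 4 genes. Over the 9 tested regulators, 2 were higher in each miR-99 KD library and 4 lower, against 24.5% and 26% of all genes tested. The other 3 overlapped. Of the 16 tested genes of ubiquitin supply and delivery, edgeR and DESeq2 called 0. DESeq2 called 1.68% of all genes higher and 4.16% lower. The median over the 16 was 0.16. Of them 8 were higher in both miR-99 KD libraries and 2 lower, against 24.5% and 26% of all genes tested. Ubqln1, which encodes a shuttle that brings tagged proteins to the cap, had 485 and 512 CPM in miR-99 KD, against 372 and 396 CPM in Scr. Uba6, a ubiquitin-activating enzyme, had 71.4 and 104 CPM in miR-99 KD against 64.3 and 69.1 CPM in Scr.

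Among 11 genes of interferon-linked antigen processing, 5 lay lower in each miR-99 KD library, against 26% of all genes tested. Of the others, 2 were higher, against 24.5% of all genes, and 4 overlapped. Tap2 had 76.4 and 58.7 CPM in miR-99 KD, against 133 and 173 CPM in Scr, and Tap1, the other chain of the transporter that carries proteasome products to MHC class I, 149 and 143 CPM against 228 and 244 CPM. DESeq2 called both, at adjusted p of 1.1e-04 and 4.6e-04, and edgeR called neither, at 0.199 for each. Without a filter on low counts, edgeR's adjusted p was 2.2e-05 for Tap2 and 0.0080 for Tap1, in a fit that called 763 of all genes lower. Irf1, a transcription factor of immunoproteasome genes, had 61.6 and 50.5 CPM in miR-99 KD against 78.4 and 86.1 CPM in Scr. Calr, a chaperone of MHC class I assembly, was higher, at 1198 and 1248 CPM in miR-99 KD against 991 and 895 CPM in Scr. B2m, the light chain of MHC class I, overlapped at 1416 and 1782 CPM in miR-99 KD against 1896 and 1315 CPM in Scr.

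**Figure D5:**
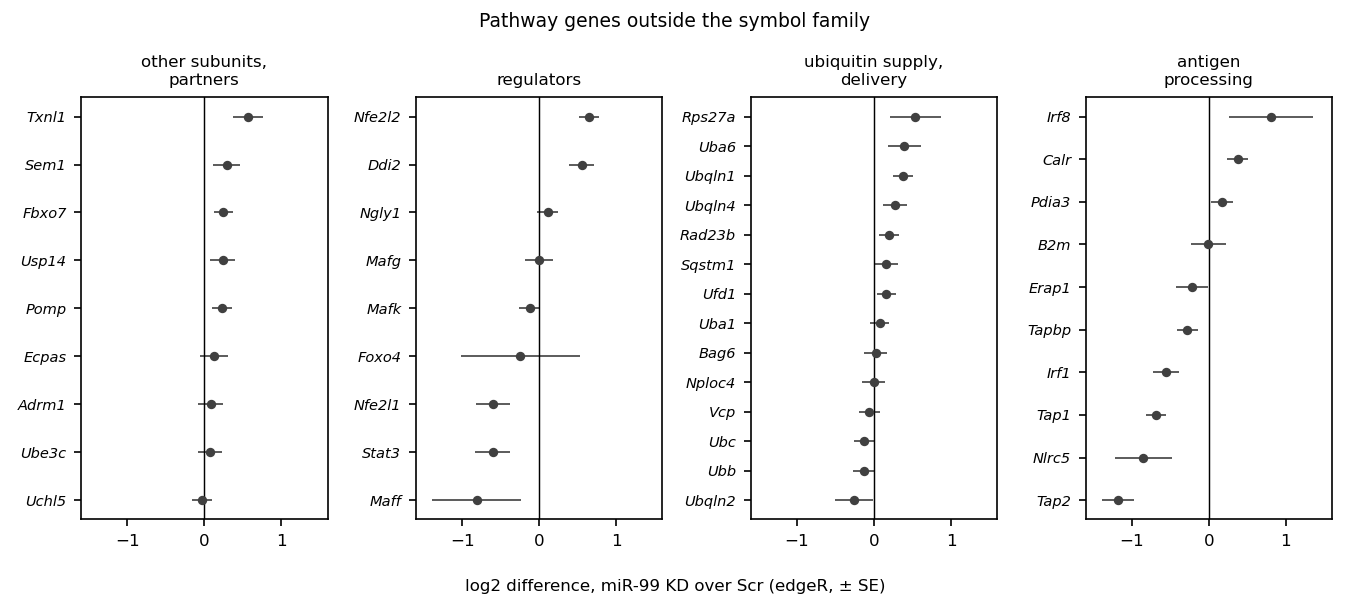
Log2 differences (miR-99 KD over Scr) with SE from edgeR for genes of the pathway outside the symbol family that are reported here, in 4 lists. Tap2 lies lowest at -1.18, and Nfe2l2 and Nfe2l1 lie on opposite sides of 0 at 0.65 and -0.60.

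Start regions of the members were searched for short motifs, on both strands, because the immunoproteasome genes and the lid genes Psmd6 and Psmd11 lay on opposite sides. RefSeq windows of 300 bases, 250 before and 50 after each start, were found for 41 members and 32851 starts in all. Members were counted by gene, with a match in any window of the gene. The share of all windows was counted by window over every start, so the 2 are unlike in unit. The ETS-type motif CCGGAAG was found in 15 of 38 members outside the immunoproteasome, or 39.5%. It was found in 0 of the 3 immunoproteasome genes, against 8.86% of all windows. The 15 hold Psmd6 and Psmd11, but also Psmd2, Psmd13 and Psmc1, the 19S subunits with a log2 difference below 0. Those differences were -0.22, -0.18 and -0.10, so the motif was found in members on both sides of 0. The motif CCAAT was found in 13 of the 38 and in 1 of the 3, Psmb9, against 37.4% of all windows. The interferon response motif GAAA, 2 bases of any kind, GAAA, was found in 5 of the 38, among them Psme1, and in 0 of the 3, against 3.44% of all windows. The STAT-type motif TTCNNNGAA was found in Psmb8 and in 2 other members, against 8.30% of all windows, and the antioxidant-type motif TGACNNNGC in 6 members, against 12.4%. Motifs were chosen with the differences known, a match is no evidence of binding, and the motifs do not overlap each other in the windows shown.

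The windows of Psmb8, Psmd9, Psmd11 and Psmd6 are shown because DESeq2 called these genes (RefSeq, GRCm38.p6). Capitals mark the STAT-type motif in Psmb8, 97 bases before the start, and the ETS-type motif in the lid genes, 11 bases before the start of Psmd11, where it reads CTTCCGG, and 45 before that of Psmd6. Psmd9 holds no ETS-type motif, and capitals there mark the interferon response motif, 159 bases before the start, and the antioxidant-type motif, 31 before it. In the order printed, the windows are chr17:34197945-34198244 on the plus strand, chr5:123227940-123228239 on the plus strand, chr11:80428365-80428664 on the plus strand and chr14:14120896-14121195 on the minus strand.

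Psmb8: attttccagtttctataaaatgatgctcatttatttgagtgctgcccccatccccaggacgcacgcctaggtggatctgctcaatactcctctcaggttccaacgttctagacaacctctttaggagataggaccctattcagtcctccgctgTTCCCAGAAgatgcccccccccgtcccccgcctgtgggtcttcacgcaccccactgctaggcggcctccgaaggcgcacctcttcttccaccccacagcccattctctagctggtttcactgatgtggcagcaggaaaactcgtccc
Psmd9: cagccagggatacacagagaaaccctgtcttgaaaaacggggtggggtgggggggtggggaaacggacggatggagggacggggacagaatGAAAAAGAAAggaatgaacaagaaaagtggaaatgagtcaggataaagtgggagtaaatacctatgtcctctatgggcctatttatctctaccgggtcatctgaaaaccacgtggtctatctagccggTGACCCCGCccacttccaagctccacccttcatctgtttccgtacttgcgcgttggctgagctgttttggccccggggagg
Psmd11: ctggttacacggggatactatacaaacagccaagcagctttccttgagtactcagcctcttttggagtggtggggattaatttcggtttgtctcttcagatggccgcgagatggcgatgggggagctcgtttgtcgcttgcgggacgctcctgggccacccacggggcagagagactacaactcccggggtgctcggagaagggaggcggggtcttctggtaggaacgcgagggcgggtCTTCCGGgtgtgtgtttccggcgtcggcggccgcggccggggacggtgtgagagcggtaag
Psmd6: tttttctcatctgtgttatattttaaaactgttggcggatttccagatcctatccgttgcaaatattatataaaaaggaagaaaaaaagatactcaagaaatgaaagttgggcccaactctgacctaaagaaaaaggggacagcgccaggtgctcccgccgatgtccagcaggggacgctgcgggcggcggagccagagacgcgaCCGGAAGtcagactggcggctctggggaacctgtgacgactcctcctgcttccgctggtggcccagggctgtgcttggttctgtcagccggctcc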

How the data were processed

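RNA of sorted LSK cells was measured in 4 libraries, 2 per group, grouped by the titles in the labels. Each deposited file holds unnormalised counts of reads by Ensembl gene ID for 1 library. Per the labels' protocols, RNA was extracted with Trizol LS and amplified by SMARTer. The submitters' processing notes name build mm9 and the tools HTSeq, STAR, DESeq2 and Picard. Versions, annotation and strand setting: not given in the sources used here. The labels do not say that libraries came from separate mice, so p-values measure only the spread between these libraries, which may be technical.

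Symbols for 44585 of 45232 rows, transcripts and lengths were taken from the GENCODE M21 annotation, whose build differs from mm9, so file rows are given no coordinates. Rows that name no gene were left out: reads with no feature made up 8.31% to 13.8% and reads with several alignments 18.0% to 21.9% of all reads. Library names pasted below the genes end in another number than the title in 3 files, and 1 pasted total matches no library; the titles were followed.

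edgeR 4.0.16 in R 4.3.3 was the main test (filterByExpr, TMM, quasi-likelihood, no block, adjusted p of 0.05), fitted to all genes, with DESeq2 1.42.0 and limma 3.58.1 as alternatives, tested on simulated data. The fit's SE is the log2 difference divided by the root of F. Over all genes tested, deviations from group means correlated at 0.0567 between libraries of the same number, and numbers were not taken as pairs. Some genes did follow the number, Psma8 among them. The globin gene Hbb-bs did too, with 2379 and 707 CPM in miR-99 KD 1 and 2 against 1992 and 468 CPM in Scr 1 and 2. Members, lists and motifs were chosen with earlier results of these data known. Values in every library are given for catalytic subunits, activators and up to 4 members of each class or pathway list with the smallest p; other genes named, among them Mir99ahg, Psma3, Psma4, Psma6, Psma8, Psmc1, Psmc5, Psmd1, Psmd2, Psmd3, Psmd4, Psmd8, Psmd12, Psmd13, Psme2b, B2m, Adrm1 and Uchl5, were chosen after their values were seen. Some genes of the pathway lists are counted but not reported here.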

Additional observations from a re-analysis of the deposited data

How the results depend on the processing

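No cause was tested for the changes below, and the DESeq2 fits that leave out a library or add a block were chosen after seeing the data. A group with 1 library left borrows its spread from the other group, so calls in such a fit are not read as results. They show only how far the number of calls moves with the libraries. Those of members and pathway genes stand beside the calls over the whole table. Over the whole table edgeR called 0 genes, and also 0 with limma-voom, the other scalings and a threshold of 0.10. DESeq2 called 258 higher and 638 lower. Without a filter on low counts edgeR called 301 higher and 763 lower. Leaving out each library gave 0 to 301 higher and 0 to 712 lower by edgeR. By DESeq2 it gave 51 higher and 78 lower without Scr 1, 7 and 20 without Scr 2, 552 and 995 without miR-99 KD 1, and 338 and 502 without miR-99 KD 2.

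Of the members, DESeq2 called 3 higher, against 1.68% of all genes, and 1 lower, against 4.16%. Without a filter edgeR called 1 member lower, in the fit that called 763 of all genes lower. Leaving out each library gave 0 to 1 higher and 0 to 1 lower by edgeR, and 0 to 6 higher and 0 to 1 lower by DESeq2. Pathway genes called numbered 1 higher and 2 lower by DESeq2, 1 and 4 by edgeR without a filter, and 0 to 2 and 0 to 4 by edgeR without each library. Members that did not overlap numbered 31 to 37 higher and 7 to 11 lower without each library, against 30.7% to 39.7% and 36.9% to 41.3% of all genes in the same comparisons.

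A replicate block left edgeR at 0 genes called, and DESeq2 at 88 higher and 303 lower, of which 0 were members; it changed no call of edgeR.

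Scaling by library totals alone set the median log2 difference at 0.18 over all members, 0.20 over the standard proteasome genes (a grouping of 41 made after values were seen), 0.30 for the 19S chaperones, 0.14 for the 19S ATPases, 0.12 for the non-ATPases and -0.038 for the constitutive catalytic subunits, and turned Psmb5 to -0.038 and Psmg4 to -0.031. The ATPase median was 0.20 with upper-quartile scaling, without a filter and with a filter at 10 CPM, and the constitutive median was 0.020, 0.026 and 0.020. Leaving out each library gave medians of 0.32 to 0.48 for the 19S chaperones, 0.19 to 0.25 for the ATPases, 0.17 to 0.27 for the non-ATPases, 0.23 to 0.41 for the 20S chaperones, 0.21 to 0.39 for the alpha ring, 0.018 to 0.068 for the constitutive subunits and -0.43 to -0.26 for the interferon-inducible genes (Psmb8, Psmb9, Psmb10, Psme1 and Psme2, grouped after values were seen). Leaving out a library moved other named genes by over 1.5 times, to 0.17 for Psma1, 0.21 for Psmb4, 0.26 for Psmc6, 0.21 for Psmg2, 0.32 for Txnl1 and 0.10 for Uba6 without miR-99 KD 2, to 0.05 for Psmb1, 0.14 for Pomp and 0.11 for Sem1 without Scr 2, and to -0.43 for Ly6a without Scr 1. Members that changed sign by edgeR were Psme1, at 0.0039 without mitochondrial, ribosomal protein and globin genes and -0.13 to 0.094 without each library, Psme4, at -0.024 to 0.27, and Psmg4, at -0.21 to 0.33. By DESeq2 without each library, Psma8 ran from -0.39 to 1.86, Psmc1 from -0.20 to 0.0034, Psmc5 from -0.21 to 0.20, Psmd3 from -0.083 to 0.17 and Psmd13 from -0.40 to 0.017.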
